A study of Mus musculus with 173 samples.

Results

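Smoc1, Cldn14, Cd82, Slc45a3, Osbpl5, Acy3 and Chdh are 7 of the 38561 genes listed in an RNA survey of the Q175 mouse, a knock-in model of Huntington's disease. They were chosen from genes called higher in Q175 than in wild-type mice in 2 or more of 5 brain regions, at an adjusted p under 0.05 in a separate edgeR fit of each region. That rule held for 143 genes, of which 16 were called higher in 3 or more regions. It held for all 7 members, and 6 of the 7 were called higher in 3 or more regions. Brain differences decided the choice, so they are described here without a test. Tests are given for the 6 tissues outside brain, for the difference between the sexes and for the difference between peripheral tissues.

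Polyadenylated RNA came from 11 tissues of 16 C57BL/6 mice aged 6 months. The 8 heterozygous knock-in animals carried an Htt allele named for 175 CAG codons, Htt being the gene for huntingtin, and the other 8 were wild type. Each genotype comprised 4 females and 4 males. Every tissue had 8 Q175 and 8 wild-type libraries, apart from gonadal adipose with 7 and skin with 6 wild-type libraries. Per the labels, Q175 animals were kept with Het (Q175) mice, whereas wild-type animals were kept with Het (Q20) mice and bear codes of that colony, so genotype, housing and colony cannot be told apart. The libraries are of bulk tissue, in which fewer cells of a type and less RNA per cell cannot be told apart either.

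The 7 genes encode proteins at the cell surface, in membranes and in metabolism. Smoc1 encodes a secreted calcium-binding protein of the SPARC family that acts in the extracellular matrix. Cldn14 encodes a claudin, a strand-forming protein of tight junctions, and Cd82 a tetraspanin, a membrane organizer that associates with integrins and other receptors. Slc45a3, also called prostein, belongs to a family of sugar transporters and is known in brain from myelinating oligodendrocytes. Osbpl5 encodes a lipid transfer protein at contacts between the endoplasmic reticulum and the plasma membrane. Acy3 encodes an aminoacylase, which removes the acetyl group from acetylated amino acids, and Chdh encodes mitochondrial choline dehydrogenase, which starts the conversion of choline to betaine. Several of these genes are known from the oligodendrocyte lineage, the cells that build myelin.

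Levels are given as CPM, estimated counts scaled to the library total and, within each tissue, by TMM, from totals of 28 to 48 M estimated counts. Htt itself had a median below that of wild type in 11 of 11 tissues, with log2 fold changes of -0.58 in hippocampus to -0.11 in gonadal adipose, and passed the test in 4 tissues. In hippocampus Htt was at 80.9 and 93.2 CPM in Q175 females 3 and 4, where the other 6 Q175 libraries had 145 to 206 CPM and wild-type libraries 209 to 255 CPM. In those 2 libraries log2 levels fell with transcript length, by slopes of -0.292 and -0.212 per doubling of length. Without them the log2 fold change of Htt was -0.36 ± 0.069 (adjusted p = 0.00641, edgeR). Leaving out such libraries, after seeing the data, gave -0.37 ± 0.065 for Htt in brainstem (adjusted p = 0.00269, edgeR). In hypothalamus/thalamus it gave -0.32 ± 0.041 (adjusted p = 0.00321, edgeR). Summed CPM of 12 oligodendrocyte markers ran from 31600 to 74800 over all corpus callosum libraries, against 3320 to 23400 in the other brain regions. None of the 12 was at 0 in all libraries of a brain region. Summed cardiomyocyte markers were 33900 to 42700 CPM over all heart libraries and summed muscle markers 95300 to 152000 CPM over all gastrocnemius libraries. The Q175 male coded 10 stood inside the wild-type range for Abhd1 in 11 of 11 tissues, whereas the other 7 Q175 animals were above it in 5 of 5 brain regions. Abhd1 is a gene on the same chromosome as Htt.

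Promoter windows of 300 bases, from 250 before to 50 after a transcript start, show the regulatory sequence of the members with the largest brain differences. RefSeq (GRCm38.p6) lists such windows for 6 of the 7 members, with 1 start for Acy3, 2 for Slc45a3, 3 each for Cldn14, Osbpl5 and Chdh, and 4 for Cd82. Gene counts do not tell which start was used, and the most upstream one was taken. The windows below are chr16:94008788-94009087 (minus strand) for Cldn14, chr1:131962665-131962964 (plus strand) for Slc45a3 and chr14:30008750-30009049 (plus strand) for Chdh, each 5′ to 3′. Capitals mark GGGCGG on either strand, so a capital CCGCCC is the motif on the opposite strand.
Cldn14: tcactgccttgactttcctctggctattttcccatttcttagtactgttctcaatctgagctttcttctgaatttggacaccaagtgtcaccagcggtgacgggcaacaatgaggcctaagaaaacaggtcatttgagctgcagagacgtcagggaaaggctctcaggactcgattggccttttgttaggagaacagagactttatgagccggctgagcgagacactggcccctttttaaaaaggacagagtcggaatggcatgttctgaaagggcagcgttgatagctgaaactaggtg
Slc45a3: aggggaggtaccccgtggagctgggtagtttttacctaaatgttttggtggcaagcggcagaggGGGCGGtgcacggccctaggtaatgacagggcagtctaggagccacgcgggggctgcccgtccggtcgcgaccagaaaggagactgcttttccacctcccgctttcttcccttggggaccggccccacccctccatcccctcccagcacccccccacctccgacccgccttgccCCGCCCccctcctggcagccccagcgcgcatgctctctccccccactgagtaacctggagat
Chdh: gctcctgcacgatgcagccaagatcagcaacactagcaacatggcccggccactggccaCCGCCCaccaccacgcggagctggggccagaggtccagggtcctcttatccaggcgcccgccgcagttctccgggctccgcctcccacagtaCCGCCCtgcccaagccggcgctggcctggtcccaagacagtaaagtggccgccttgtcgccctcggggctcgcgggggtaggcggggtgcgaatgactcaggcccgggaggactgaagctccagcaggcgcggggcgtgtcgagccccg
GGGCGG, the GC box, occurred 2 times each in the windows of Slc45a3, Chdh and Cd82, 1 time in that of Acy3, and not in those of Cldn14 and Osbpl5. It occurred in 35.9% of the 27025 genes' windows of this length. CCAAT occurred 1 time each in the windows of Cldn14 and Osbpl5 (38% of all windows), and TATAAA 1 time in that of Acy3 (14.2% of all windows). No window of the 6 held CAGCTG, an E-box that 16.1% of all windows hold. Both strands were searched for each motif, and no match overlapped a match of another motif. CG dinucleotides numbered 26 in the Chdh window, 17 in that of Slc45a3, 16 each in those of Osbpl5 and Cd82, 8 in that of Cldn14 and 7 in that of Acy3, against a median of 7 over all windows (quartiles 3 and 20.5). The windows thus shared no single motif among those searched.

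Across the 5 brain regions the 7 members gave 35 differences, of which 34 were above 0. The exception was Osbpl5 in cerebellum at -0.069 ± 0.046 (log2 fold change of Q175 over wild type and its standard error). In brainstem all 7 members were called higher, where 2.07% of all genes tested were. In hippocampus 6 were called higher (1.96% of all genes), in hypothalamus/thalamus 5 (0.108%), in cerebellum 3 (7.94%) and in corpus callosum 2 (0.0484%). The rule fixed these counts in part, and nothing is read from them. No member was called lower in a brain region (2.4% of all gene-by-region tests). The medians of the 7 differences were 0.78 in brainstem, 0.59 in hypothalamus/thalamus, 0.51 in corpus callosum, 0.46 in hippocampus and 0.24 in cerebellum, against medians over all genes between -0.0049 and 0.012. The adjusted p-values that follow are those the rule used, or refits of them. They show how near the threshold its calls stood and are no test of the members. Just inside the threshold stood Cd82 in hypothalamus/thalamus (adjusted p = 0.0349, edgeR) and Cldn14 in hippocampus (0.0361). Just outside it stood Chdh in hypothalamus/thalamus (adjusted p = 0.0892, edgeR) and in hippocampus (0.137). Leaving out 1 library at a time, Smoc1 in corpus callosum was called in 5 of 16 fits, Osbpl5 in corpus callosum and Cd82 in hypothalamus/thalamus in 7 of 16, Cldn14 in hippocampus in 8 of 16 and Cd82 in hippocampus in 14 of 16, with values above 0 in each of these fits and adjusted p up to 0.0946 (Cd82 in hypothalamus/thalamus, edgeR).

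Within brainstem, hippocampus and hypothalamus/thalamus, levels fell most with transcript length in 7 libraries, which were 1 wild-type library in brainstem, Q175 females 3 and 4 in hippocampus, and 3 Q175 and 1 wild-type library in hypothalamus/thalamus. Without these libraries, left out after seeing the data, Acy3 in hippocampus gave 0.68 and Acy3 in hypothalamus/thalamus 0.72, against 0.83 and 0.93 with all libraries. Likewise Cd82 in hypothalamus/thalamus gave 0.28, against 0.36 with all libraries, and Cldn14 in hypothalamus/thalamus 1.26, against 1.37. Slc45a3 in hippocampus gave 1.22, against 1.26, and Chdh in hippocampus 0.49, against 0.40. Corpus callosum also had falling slopes, at -0.171 in wild-type female 1, -0.16 in Q175 male 1 and -0.11 in Q175 female 2. That region was not refitted without these libraries as a group.

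**Figure D1:**
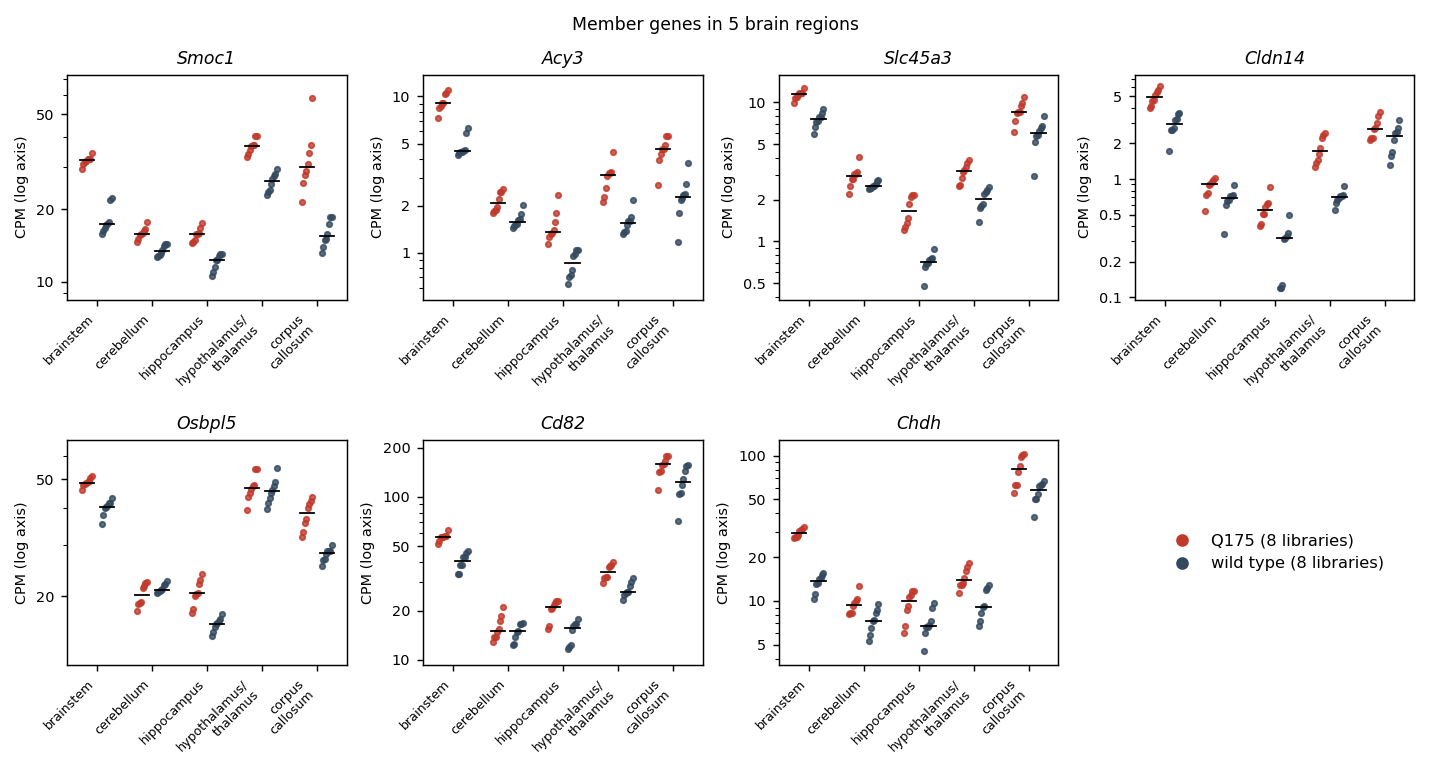
Each point is the CPM of a library on a log axis, with Q175 (8 libraries) left of wild type (8 libraries) in each brain region and lines at the medians. All Q175 points of Smoc1 lie above all wild-type points of the same region, while those of Osbpl5 in cerebellum, at 17.9 to 22.4 CPM, overlap the wild-type points at 20.5 to 22.5 CPM.

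The Q175 and wild-type libraries did not overlap at all in 17 of the 35 combinations of member and region. Of these, 7 were in brainstem, where 0.857% of the genes tested had every Q175 library above every wild-type library. The others were 4 in hippocampus (0.43% of genes), 3 in hypothalamus/thalamus (0.0657%), 2 in corpus callosum (0.0907%) and 1 in cerebellum (1.94%). Counted by library, 217 of 280 Q175 values stood above the highest wild-type value of their region. These values share the same Q175 animals and are not independent. The rule used the same libraries and so fixed these counts in part, and nothing is read from them.

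Smoc1, the matrix protein gene, was the member with the fullest separation. In brainstem it stood at 29.5 to 34.3 CPM (median 32.1) in Q175 mice, against 15.7 to 22.4 CPM (median 17.3) in wild type, a log2 fold change of 0.82 ± 0.066. In corpus callosum Q175 libraries held 21.4 to 58.5 CPM (median 29.96) and wild-type libraries 13.2 to 18.6 CPM (median 15.4), which gave 1.05 ± 0.16. Every one of the 40 Q175 brain libraries was above the highest wild-type library of its region. In hypothalamus/thalamus the levels were 33 to 40.4 CPM (median 36.9) in Q175 and 22.9 to 29.5 CPM (median 26.2) in wild type (0.50 ± 0.055). Hippocampus (0.38 ± 0.057) and cerebellum (0.24 ± 0.046) gave smaller differences. In cerebellum the groups were apart by little, with a lowest Q175 library of 14.6 CPM and a highest wild-type library of 14.4 CPM. The 2 highest corpus callosum values, 58.5 CPM in a Q175 female and 37 CPM in a Q175 male, were in the libraries with the highest summed meningeal fibroblast markers, where wild-type libraries had 90.6 to 195 CPM. Those 8 markers ran from 76.9 to 861 CPM in Q175 corpus callosum, none of the 8 passed the test there, none was at 0 in all libraries, and their part in the result was not tested.

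Cldn14, the claudin gene, was at low levels in brain and gave the largest difference of any member in hypothalamus/thalamus. Its 8 Q175 libraries there held 1.27 to 2.45 CPM (median 1.74), against 0.551 to 0.869 CPM (median 0.703) in wild type, a log2 fold change of 1.37 ± 0.15 or 2.59-fold. No wild-type library reached the lowest Q175 library in that region or in brainstem. Brainstem levels were 3.97 to 6.13 CPM (median 4.9) in Q175 and 1.72 to 3.59 CPM (median 2.93) in wild type (0.78 ± 0.13). In hippocampus, Q175 libraries at 0.402 to 0.85 CPM (median 0.543) rested on 13 to 29 estimated counts, and wild-type libraries at 0.12 to 0.492 CPM (median 0.315) on 4 to 16, so the difference of 1.04 ± 0.27 is imprecise. Cerebellum (0.35 ± 0.16) and corpus callosum (0.33 ± 0.19) had overlapping groups, with 4 and 2 of 8 Q175 libraries above the highest wild-type library.

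Cd82, the tetraspanin gene, was at 51.5 to 62.9 CPM (median 56.6) in Q175 brainstem, against 33.5 to 46.9 CPM (median 40.5) in wild-type brainstem (0.49 ± 0.067), with no overlap. Its level was highest in corpus callosum, where the groups overlapped at 111 to 179 CPM (median 159) in Q175 and 71.7 to 156 CPM (median 123) in wild type (0.33 ± 0.14). Hippocampus gave 0.46 ± 0.11 and hypothalamus/thalamus 0.36 ± 0.075, each with 6 of 8 Q175 libraries above the wild-type range. Cerebellum gave 0.11 ± 0.084, with 3 of 8 above it.

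Slc45a3, the prostein gene, had its largest brain difference in hippocampus. It was at 1.21 to 2.15 CPM (median 1.67) in Q175 and 0.479 to 0.879 CPM (median 0.718) in wild type, a log2 fold change of 1.26 ± 0.16 or 2.39-fold. Brainstem levels of 9.87 to 12.7 CPM (median 11.4) in Q175 and 5.92 to 8.93 CPM (median 7.58) in wild type gave 0.59 ± 0.074. Hypothalamus/thalamus gave 0.67 ± 0.12, and in these 3 regions the groups did not overlap. In corpus callosum (0.54 ± 0.16) and cerebellum (0.22 ± 0.10), 6 of 8 Q175 libraries were above the wild-type range, and in cerebellum 1 Q175 library was below it. In GENCODE M21, exons of Slc45a3 overlap those of Gm29103 on the same strand over 481 bases, and the counts may be split between them.

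Osbpl5, the lipid transfer gene, had the lowest difference of the 7 members in every brain region other than corpus callosum. Corpus callosum held 31.8 to 43.4 CPM (median 38.2) in Q175 and 25.4 to 29.99 CPM (median 28.1) in wild type (0.45 ± 0.067), without overlap. Brainstem (0.29 ± 0.041) and hippocampus (0.36 ± 0.062) were also without overlap. In hypothalamus/thalamus the groups lay on each other, at 39.4 to 54.1 CPM (median 46.8) in Q175 and 39.5 to 54.3 CPM (median 45.5) in wild type (0.047 ± 0.067). In cerebellum 4 of 8 Q175 libraries were below the lowest wild-type library.

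Acy3, the aminoacylase gene, was close to 2-fold higher in Q175 in 3 regions, at 1.93-fold in brainstem, 1.93-fold in corpus callosum and 1.91-fold in hypothalamus/thalamus. Brainstem libraries held 7.29 to 11.1 CPM (median 9.08) in Q175 and 4.21 to 6.28 CPM (median 4.46) in wild type (0.95 ± 0.10). Hippocampal levels were 1.14 to 2.34 CPM (median 1.37) in Q175 and 0.63 to 1.05 CPM (median 0.866) in wild type (0.83 ± 0.15). Neither of these regions had overlapping groups, while 7 of 8 Q175 libraries exceeded the wild-type range in hypothalamus/thalamus and in corpus callosum, and 4 of 8 in cerebellum (0.40 ± 0.11). In hypothalamus/thalamus Acy3 stood at 2.11 to 4.39 CPM (median 3.17) in Q175 and 1.33 to 2.17 CPM (median 1.55) in wild type (0.93 ± 0.15), and in corpus callosum at 2.73 to 5.6 CPM (median 4.64) in Q175 and 1.18 to 3.77 CPM (median 2.29) in wild type (0.95 ± 0.19). The highest wild-type library of Acy3 in hypothalamus/thalamus, at 2.17 CPM, stood apart from the next at 1.7 CPM.

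Chdh, the choline dehydrogenase gene, had the largest brainstem difference of the 7. Its Q175 brainstem libraries held 27.3 to 32.3 CPM (median 29.2) and its wild-type libraries 10.3 to 15.5 CPM (median 13.7), a log2 fold change of 1.14 ± 0.076 or 2.2-fold. In corpus callosum, where Chdh was most abundant in brain, it stood at 55.7 to 103 CPM (median 81.1) in Q175 and 38 to 66.5 CPM (median 58) in wild type (0.51 ± 0.14). Those groups overlapped, as did the groups in hypothalamus/thalamus (0.59 ± 0.14), hippocampus (0.40 ± 0.15) and cerebellum (0.39 ± 0.11), where 4 to 6 of 8 Q175 libraries were above the wild-type range. The labels do not state whether libraries keep strand, and Chdh exons overlap those of the calcium channel gene Cacna1d on the opposite strand over 589 bases, 9.47% of the Chdh exon length. Cacna1d itself stood at 35 to 41.4 CPM (median 36.4) in Q175 brainstem and 22.1 to 39.6 CPM (median 36.1) in wild-type brainstem, a log2 fold change of 0.092 ± 0.087, and its brain differences ran from -0.44 in corpus callosum to 0.11 in cerebellum.

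Animal by animal, 5 of 5 brain regions of each of the 8 Q175 mice were above the wild-type range for Smoc1. The number of combinations of member and region above that range ran from 23 to 31 of 35 per animal. The lowest number belonged to the male coded 10, and the highest to the male coded 4. The male coded 10 was also the lowest of the 8 Q175 animals in 17 of 35 combinations, where the others were lowest in 1 to 5. For Acy3 it exceeded the wild-type range in 2 of 5 regions, where the other 7 animals did so in 4 or 5.

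**Figure D2:**
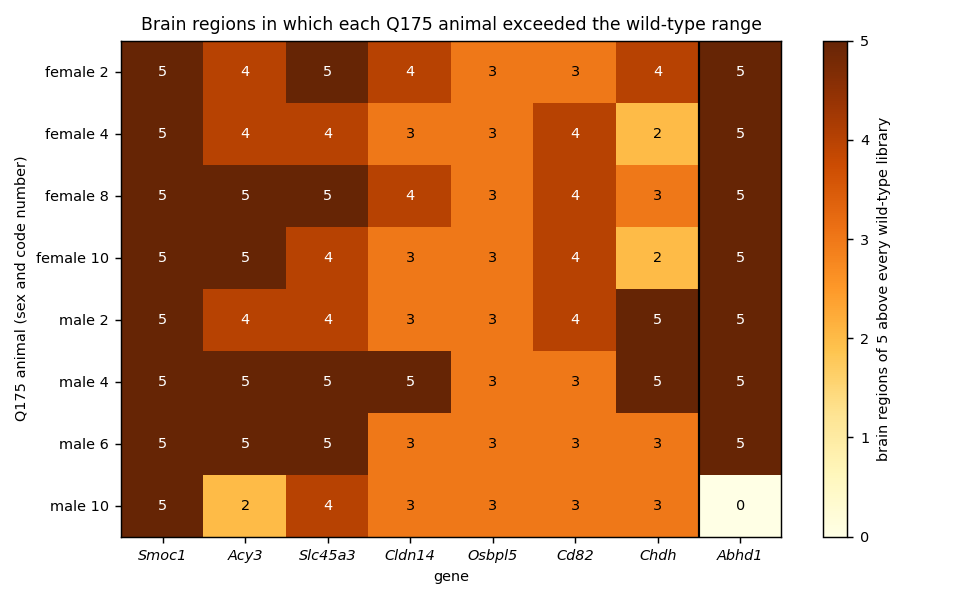
Rows are the 8 Q175 animals by sex and code number, columns the 7 members and Abhd1, and each cell counts the brain regions, of 5, in which that animal's library was above every wild-type library. The Smoc1 column is 5 throughout, while male 10 has 0 for Abhd1 and 2 for Acy3.

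The difference between Q175 and wild type was compared between males and females, which the choice of members did not use. None of 71 tests of sex by genotype over the 11 tissues passed an adjusted p under 0.05 in edgeR, where 0.0212% of all such tests did (0.231% in gonadal adipose). An unadjusted p under 0.05 was found for 10 of the 71, against 7.3% of all such tests and 21.7% of those in hippocampus. The smallest adjusted p was 0.0913, for Smoc1 in gonadal adipose. Smoc1 there averaged 264 CPM in Q175 males and 400.1 CPM in wild-type males, against 439 CPM in Q175 females and 378 CPM in wild-type females. The male difference less the female one was -0.81 ± 0.2 on the log2 scale. Among the members DESeq2 called this difference alone (adjusted p = 0.00309), where it called 3.41% of genes in gonadal adipose and 0.505% of tests over all tissues. Summed epididymis markers in gonadal adipose were 504 to 3410 CPM in those Q175 males, at most 5.23 CPM in Q175 females and 0.107 to 2.59 CPM in wild type, and their part in the result was not tested. Osbpl5 in hippocampus had an unadjusted p of 0.00126 and an adjusted p of 0.207 in edgeR, with a difference of 0.35 ± 0.09 between males and females. Its Q175 males averaged 22.3 CPM and its wild-type males 15.4 CPM, while Q175 females averaged 19 CPM and wild-type females 16.8 CPM. Osbpl5 was higher in Q175 hippocampus in both sexes. The hippocampal libraries whose levels fell most with transcript length were those of Q175 females 3 and 4, at slopes of -0.292 and -0.212. The comparison of the sexes was not repeated without them, and their part in it was not tested.

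Genes with the most similar pattern were ranked by Pearson's r over 80 brain libraries of 16 animals, on log2 CPM less the mean of tissue and sex, among 13462 genes. These r values are descriptions, since libraries of an animal are not independent and the genotype difference enters them. Smoc1 was most like Col9a2 (r = 0.837), Acy3 (0.795) and Pdlim5 (0.784). Acy3 was most like Abhd1 (r = 0.844), Cd82 (0.837) and Tmprss5 (0.836), and Slc45a3 like Cd82 (0.837), Tmprss5 (0.823) and Plpp2 (0.821). Cldn14 was most like Tmc6 (r = 0.812), Acy3 (0.781) and Tmprss5 (0.779), so Tmprss5 was named for 3 members. Osbpl5 was most like Smoc1 (r = 0.732), Emilin2 (0.721) and Abca8a (0.716). Cd82 was most like Psat1 (r = 0.896), Carhsp1 (0.896) and Jam3 (0.864), and Chdh like Rnf43 (0.855), Zfp488 (0.842) and Plxnb3 (0.82). With the genotype means removed as well, r between members ran from 0.0256 (Smoc1 and Chdh) to 0.683 (Acy3 and Cd82) over 21 pairs, with a median of 0.314. Within a genotype, Smoc1 thus varied between libraries with little relation to Chdh.

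Relatives of the members were mostly uncalled. Over the 5 brain regions together more of their tests were called lower than higher, which did not hold in each region. Families of the 7 genes, without the members, gave 346 tests over the 5 brain regions, of which 5 were called higher and 26 lower, against 2.39% and 2.4% of all gene-by-region tests. In the SPARC family, 0 of 35 tests were called higher and 8 lower, among them Sparc, a matrix protein gene, at -0.21 ± 0.034 in brainstem (adjusted p = 0.00115, edgeR). Among the aminoacylases, 0 of 20 were called higher and 4 lower. Aspa, the oligodendrocyte enzyme that splits N-acetylaspartate, averaged 17.9 ± 2.94 CPM in Q175 and 33.4 ± 6.35 CPM in wild-type hypothalamus/thalamus (SD, n = 8 each), a log2 fold change of -0.89 ± 0.12 (adjusted p = 0.00169, edgeR). Of 41 claudin tests 0 were called higher and 5 lower. Cldn11, the claudin of myelin and also one of the oligodendrocyte markers, was lower in brainstem (-0.38 ± 0.07), cerebellum (-0.41 ± 0.042) and hypothalamus/thalamus (-0.71 ± 0.14). Of 110 tetraspanin tests 4 were called higher and 7 lower. Tspan2, a tetraspanin of myelinating cells, was lower in the same 3 regions (-0.56 ± 0.043, -0.29 ± 0.026 and -0.76 ± 0.079), while Tspan15 was higher in brainstem (0.32 ± 0.065) and hippocampus (0.24 ± 0.061) and lower in cerebellum (-0.13 ± 0.043). Of 55 tests of oxysterol-binding relatives 1 was called higher, Osbpl3 in cerebellum (0.19 ± 0.041), and 0 lower. Among choline and betaine genes 0 of 74 tests were called higher and 2 lower, and among the SLC45 genes 0 of 11 were called. By region, cerebellum had 4 SPARC, 2 aminoacylase, 1 claudin, 5 tetraspanin and 2 choline tests called lower. Hippocampus had 3 tetraspanin tests called higher and 2 claudin tests lower, and corpus callosum had none called. The medians of the 7 families lay between -0.11 and 0.04 in brainstem and between -0.24 and 0.018 in hypothalamus/thalamus, where the medians over all genes were -0.0021 and 0.0074. They lay between -0.15 and 0.039 in cerebellum, -0.065 and 0.12 in hippocampus, and -0.31 and 0.16 in corpus callosum. Medians over all genes there were -0.0049, 0.012 and 0.0014.

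Markers of the myelinating lineage are given beside these values. Over all genes, 2.39% of gene-by-region tests in brain were called higher and 2.4% lower. Of all genes tested, 2.07% were called higher in brainstem, 7.94% in cerebellum and 1.96% in hippocampus. The shares called lower in single regions are not given here, so the marker counts are not set against them. Of 12 oligodendrocyte markers, 5 were called lower and 1 higher in brainstem, 11 lower in cerebellum, 5 lower in hypothalamus/thalamus, and none in hippocampus and corpus callosum in edgeR. Their summed level in brainstem was 14000 to 18600 CPM in Q175 libraries, against 18000 to 23400 CPM in wild-type libraries. In cerebellum it was 3320 to 4430 CPM in Q175 libraries, against 4790 to 5750 CPM in wild-type libraries. In hypothalamus/thalamus it was 5010 to 6740 CPM in Q175 libraries, against 6140 to 11800 CPM in wild-type libraries, and in hippocampus 3370 to 5780 CPM in Q175 libraries, against 3490 to 5530 CPM in wild-type libraries. Of 7 precursor markers, 2 were called higher in brainstem, 2 higher in hippocampus, and 1 higher and 2 lower in cerebellum, with none called in hypothalamus/thalamus and corpus callosum in edgeR. Their sums in brainstem were 385 to 438 CPM in Q175 libraries, against 331 to 408 CPM in wild-type libraries, and in cerebellum 111 to 132 CPM in Q175 libraries, against 110 to 133 CPM in wild-type libraries. In corpus callosum the summed neuron markers ran from 879 to 3900 CPM in Q175 libraries, against 2060 to 4310 CPM in wild-type libraries. Summed choroid plexus markers in hypothalamus/thalamus were 40.6 to 4320 CPM (median 47.5) in Q175 libraries. In wild-type libraries there they were 33.2 to 102 CPM (median 42.5), and 0 of the 8 markers were called in edgeR. No marker of these lists was at 0 in all libraries of a region, and their part in the members' differences was not tested.

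Levels of the members across tissues were read from wild-type libraries in FPKM (fragments per kilobase of gene length, scaled to the library total), a scale that allows genes of different length to be compared. Of the 7, 6 had their highest median outside brain. Smoc1 was highest in gonadal adipose (median 109.5 FPKM, 84.7 to 123), then intestinal adipose (32.8) and brown adipose (14.4), and was lowest in gastrocnemius (0.448). In brain it ran from 3.52 FPKM in hippocampus to 7.51 FPKM in hypothalamus/thalamus, and the ranges of neighbours in this order overlapped down to hippocampus. Osbpl5 was highest in skin (74.1 FPKM, 43.5 to 85), which no other tissue overlapped, followed by hypothalamus/thalamus (13.4) and brainstem (12.5), which overlapped. Cd82 was highest in skin (135.5 FPKM, 80.2 to 161), then intestinal adipose (69) and corpus callosum (67.95), whose ranges overlapped. Corpus callosum stood above the brainstem (22.8 FPKM) for Cd82, without overlap.

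Chdh had near-equal medians in gonadal adipose (12.9 FPKM), skin (12.7) and brown adipose (12.4), with overlapping ranges. Among brain regions it was highest in corpus callosum (10.04 FPKM, 7.025 to 11.6), apart from brainstem (2.44 FPKM, 1.83 to 2.83), and it was close to 0 in heart (0.0391 FPKM). Acy3 was highest in gonadal (12.1 FPKM) and brown adipose (11.5) and heart (8.93), which overlapped, and ran from 0.567 FPKM in hippocampus to 2.93 FPKM in brainstem within brain. Slc45a3 ran from 4.63 FPKM in skin to 0.207 FPKM in brown adipose, with brainstem (2.34) and corpus callosum (1.91) the highest brain regions. Cldn14 alone had its highest median in brain, at 1.99 FPKM in brainstem and 1.58 FPKM in corpus callosum, and was listed at 0 in all wild-type heart and gonadal adipose libraries.

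**Figure D3:**
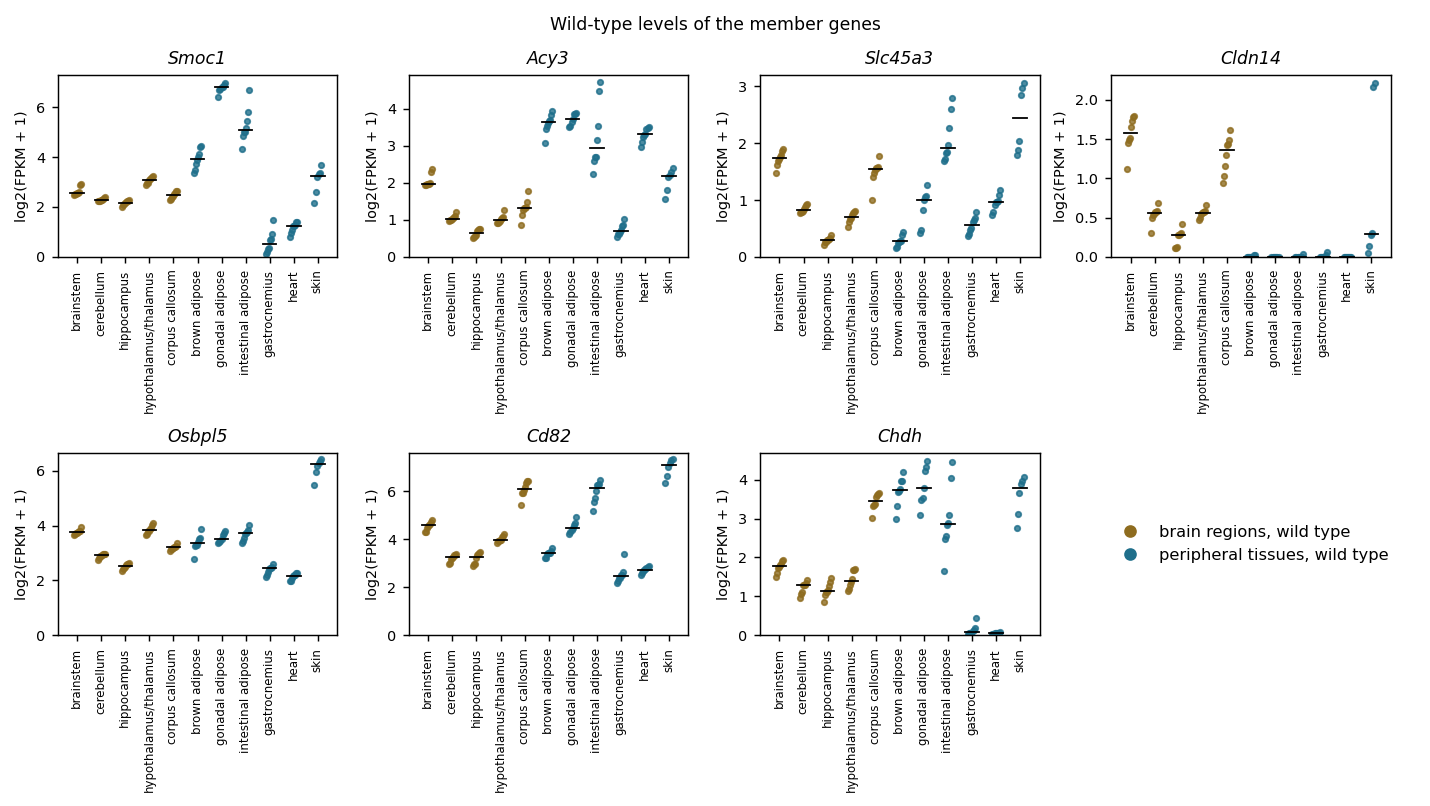
Each point is the log2 of FPKM plus 1 in a wild-type library, by tissue, with lines at the medians, brain regions on the left and peripheral tissues on the right. Cldn14 lies above 0 in the 5 brain regions and near 0 outside brain apart from skin, while Smoc1 is highest in gonadal adipose, at a median of 109.5 FPKM.

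Outside brain, where the choice of members used no value, 36 tests could be made, and Cldn14 was below the count filter in all 6 tissues. Of the 36, 3 were called higher in Q175 and 4 lower, against 3.21% higher and 4.39% lower of all gene-by-tissue tests, or 7.6% in both directions. They were found in gonadal adipose (3 of 6 members called, 32.1% of all genes), skin (3 of 6, 6.53%) and brown adipose (1 of 6, 5.41%), and with 6 members little can be read from the share in gonadal adipose. The medians of the 6 differences were 0.042 in gonadal adipose, 0.1 in skin and 0.032 in brown adipose, and over all genes 0.021, -0.047 and -0.011. No member was called in intestinal adipose (0% of all genes), gastrocnemius (0.0213%) or heart (0.0549%) by edgeR, with 2, 0 and 2 members at an unadjusted p under 0.05, and DESeq2 called none there either. DESeq2 called 11 member differences outside brain, where it called 9.58% of all its tests, among them 4 that edgeR did not, namely Cldn14 in gonadal adipose and in skin, and Osbpl5 and Chdh in skin.

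In gonadal adipose Slc45a3 and Osbpl5 rose and Acy3 fell. Slc45a3 stood at 1.64 to 12 CPM (median 4.51) in Q175 and 1.23 to 4.53 CPM (median 3.52) in wild type, a log2 fold change of 0.74 ± 0.22 (adjusted p = 0.0216, edgeR). The 4 Q175 libraries above the wild-type range were the 4 males, at 6.42 to 12 CPM, against 3.52 to 4.53 CPM in wild-type males. The call of Slc45a3 in gonadal adipose was lost without wild-type male 2 (adjusted p = 0.0509, edgeR) or wild-type male 4 (0.0504). Females overlapped, with 1.64 to 2.6 CPM in Q175 females, against 1.23 to 2.71 CPM in wild-type females. Cldn14 was detected in the same 4 Q175 males at 0.225 to 0.821 CPM and had no count in the 4 Q175 females and 7 wild-type libraries. Summed CPM of 8 epididymis markers was 504 to 3410 in those 4 males, at most 5.23 in Q175 females and 0.107 to 2.59 in wild type. Of the 8, 3 were tested and 2 called higher, 1 was at 0 in all libraries, and their part in the result was not tested.

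Osbpl5 in gonadal adipose stood at 33.7 to 55.2 CPM (median 42.6) in Q175 and 27.7 to 44.6 CPM (median 36) in wild type (0.29 ± 0.086, adjusted p = 0.0201, edgeR). The groups overlapped in males, at 33.7 to 37.1 CPM in Q175 males, against 27.7 to 40.5 CPM in wild-type males, and not in females, at 48.2 to 55.2 CPM in Q175 females, against 35.95 to 44.6 CPM in wild-type females. Acy3 stood at 13.3 to 18.1 CPM (median 15.3) in Q175 and 16.4 to 21.4 CPM (median 20.9) in wild type (-0.32 ± 0.087, adjusted p = 0.0137), with 6 of 8 Q175 libraries below the wild-type range. The call of Osbpl5 was lost without wild-type female 2 (adjusted p = 0.0518, edgeR). In females alone, Osbpl5 kept its call (0.44 ± 0.10, adjusted p = 0.0493, edgeR, 3.64% of genes called), while Slc45a3 gave 0.30 ± 0.33 (adjusted p = 0.622) and Acy3 -0.26 ± 0.12 (adjusted p = 0.249). Smoc1 (-0.23 ± 0.14, adjusted p = 0.228), Cd82 (0.28 ± 0.13, adjusted p = 0.121) and Chdh (-0.19 ± 0.17, adjusted p = 0.384) were not called in edgeR. Summed adipocyte markers, 8 in all, ran from 18600 to 35800 CPM in Q175 libraries, against 31600 to 41200 CPM in wild-type libraries, with 4 called lower and 1 higher, none at 0 in all libraries, and their part was not tested.

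In skin Smoc1 and Slc45a3 fell and Cd82 rose. Smoc1 stood at 5.72 to 20.8 CPM (median 11.5) in Q175 and 12.6 to 42.3 CPM (median 29.4) in wild type, a log2 fold change of -1.08 ± 0.20 (adjusted p = 0.0172, edgeR), opposite in direction to its brain differences, with 5 of 8 Q175 libraries below the lowest wild-type library. Slc45a3 stood at 5.75 to 8.12 CPM (median 6.56) in Q175 and 7.8 to 25.1 CPM (median 14.9) in wild type (-1.24 ± 0.25, adjusted p = 0.0215), with 7 of 8 Q175 libraries below the lowest wild-type library. Cd82 stood at 226 to 321 CPM (median 301) in Q175 and 144 to 281 CPM (median 237) in wild type (0.41 ± 0.11, adjusted p = 0.0439), with 6 of 8 Q175 libraries above the highest. Osbpl5 (0.44 ± 0.13, adjusted p = 0.0534) and Chdh (0.65 ± 0.20, adjusted p = 0.0613) missed the threshold, each with 7 of 8 Q175 libraries above the wild-type range, and Acy3 gave -0.21 ± 0.16 (adjusted p = 0.403). Wild-type males 1 and 2 stood apart in skin, with Cldn14 at 4.72 and 4.79 CPM, where the other 12 skin libraries had at most 0.35 CPM. Without them, 6.75% of genes were called, and Smoc1 gave -1.26 ± 0.20 (adjusted p = 0.0065, edgeR) and Slc45a3 -0.70 ± 0.19 (adjusted p = 0.048), while Cd82 gave 0.24 ± 0.083 (adjusted p = 0.0919), Osbpl5 0.23 ± 0.071 (adjusted p = 0.0736) and Chdh 0.31 ± 0.11 (adjusted p = 0.102). Leaving out single libraries, the call of Slc45a3 in skin was lost without Q175 male 3 (adjusted p = 0.0513, edgeR) or wild-type male 2 (0.0561). That of Cd82 in skin was lost in 10 of 14 such fits, with an adjusted p of up to 0.109. These were the fits without 1 of the 7 Q175 libraries other than female 3, and those without wild-type female 3, male 1 or male 2.

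Summed keratinocyte markers in skin ran from 35700 to 44100 CPM in Q175 libraries, against 15600 to 30000 CPM in wild-type libraries, with 5 of 7 called higher and none lower. The lowest sums, 15600 and 20100 CPM, were those of wild-type males 1 and 2. Summed adipocyte markers were 1010 to 2050 CPM in Q175 libraries, against 1650 to 4020 CPM in wild-type libraries, with 4 of 8 called lower. No marker of either list was at 0 in all skin libraries. Summed epididymis markers were 22.2 and 15.1 CPM in wild-type males 1 and 2 and at most 3.47 CPM in the other skin libraries, with 4 of 8 at 0 in all libraries, and the part of these 3 lists in the differences of the members was not tested.

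**Figure D4:**
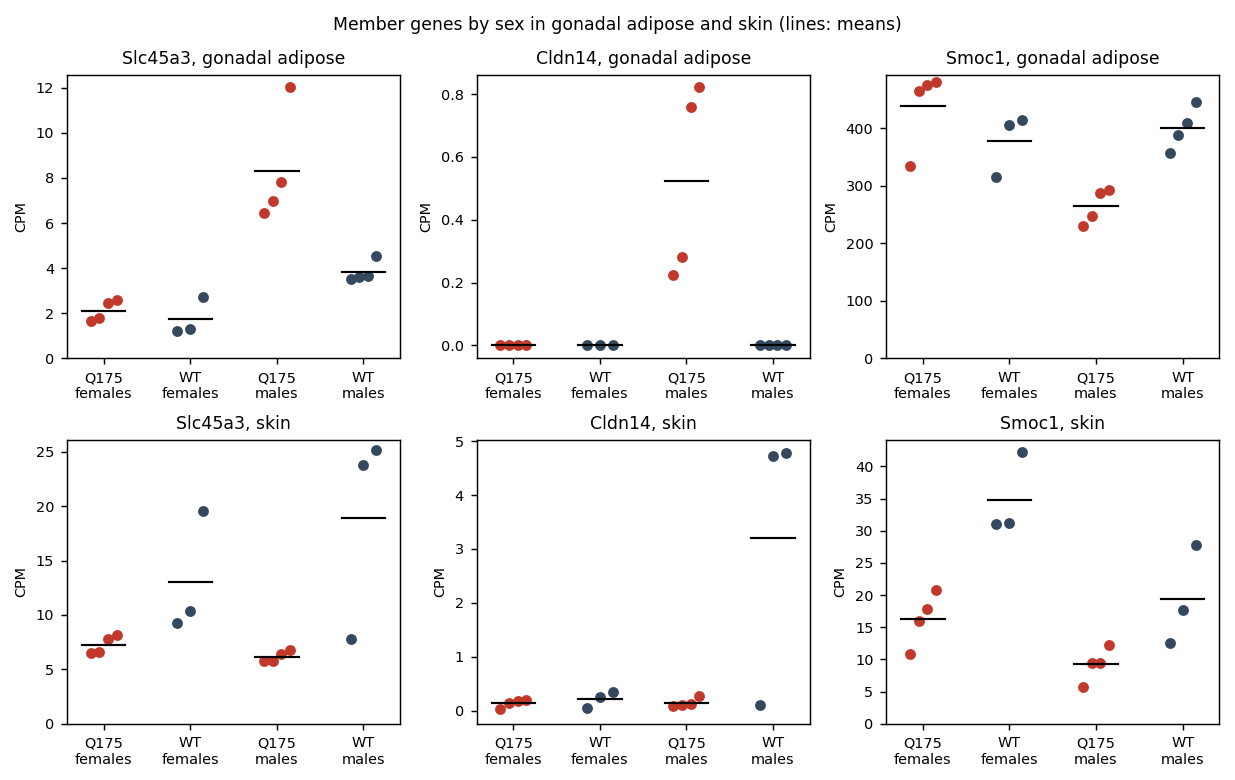
Points are CPM of single libraries by genotype and sex in gonadal adipose (upper row) and skin (lower row), with lines at the means. In gonadal adipose Slc45a3 and Cldn14 are high in the 4 Q175 males alone, at 6.42 to 12 and 0.225 to 0.821 CPM, and in skin 2 of 3 wild-type males are high for Cldn14, at 4.72 and 4.79 CPM.

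In brown adipose Slc45a3 fell, at 0.184 to 0.508 CPM (median 0.306) in Q175 and 0.386 to 1.13 CPM (median 0.668) in wild type (-1.10 ± 0.27, adjusted p = 0.0243, edgeR). The counts behind these levels were 8 to 20 in Q175 and 16 to 43 in wild type, and 6 of 8 Q175 libraries were below the lowest wild-type library. The call of Slc45a3 in brown adipose was lost without Q175 male 1 (adjusted p = 0.0563, edgeR), Q175 male 3 (0.0594), wild-type female 3 (0.0551) or wild-type male 4 (0.0628). Summed markers of skeletal muscle were 3.58 to 780 CPM in Q175 libraries, against 22 to 18900 CPM in wild-type libraries there, with 3 of 8 called lower. In the list named for meningeal fibroblasts, sums were 239 to 561 CPM in Q175 libraries and 329 to 903 CPM in wild-type libraries. Of its 8 markers 6 were called lower. The list is not specific to meninges, as its sums in wild-type gonadal adipose were 1620 to 3250 CPM. No marker of either list was at 0 in all libraries, and their part in the result was not tested. Smoc1 (0.065 ± 0.14), Acy3 (0.061 ± 0.10), Osbpl5 (-0.24 ± 0.12), Cd82 (0.0026 ± 0.076) and Chdh (0.16 ± 0.15) were not called in brown adipose.

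Heart, gastrocnemius and intestinal adipose gave wide or small differences. Chdh in heart had the largest uncalled value, 1.69 ± 0.65 (adjusted p = 0.538, edgeR), at 0.0761 to 2.85 CPM (median 0.508) in Q175 and 0.0933 to 0.327 CPM (median 0.218) in wild type, or 3.15 to 131 estimated counts in Q175 and 3.09 to 14.9 in wild type. Its highest values were those of 2 Q175 males at 2.85 and 1.15 CPM, and 2 other Q175 libraries were below the wild-type range. Summed adipocyte markers in heart were 476 to 737 CPM in Q175 libraries, against 437 to 577 CPM in wild-type libraries, the highest sum being that of the Q175 male with the highest Chdh. Of the 8 markers 7 were tested and 0 called, with a median log2 difference of 1.84, none was at 0 in all libraries, and their part in the result was not tested. Smoc1 in heart stood at 2.85 to 8.12 CPM (median 6.94) in Q175 and 2.75 to 5.51 CPM (median 4.69) in wild type (0.48 ± 0.20, adjusted p = 0.577). In intestinal adipose, Acy3 (-1.24 ± 0.49, adjusted p = 0.621) and Chdh (-1.24 ± 0.47, adjusted p = 0.598) were not called. Acy3 stood at 4.06 to 17.9 CPM (median 6.9) in Q175 and 5.24 to 47 CPM (median 10.4) in wild type, and Chdh at 8.62 to 55 CPM (median 17.6) in Q175 and 11.1 to 139.5 CPM (median 36) in wild type, wide ranges that overlapped. Summed adipocyte markers there were 4140 to 24600 CPM in Q175 libraries, against 5450 to 26500 CPM in wild-type libraries, with 0 of 8 called, none at 0 in all libraries, and their part was not tested. In gastrocnemius the 6 members tested gave differences from -0.090 (Slc45a3) to 0.32 (Smoc1).

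Whether the Q175 difference varied between the 6 peripheral tissues was tested with limma in a joint fit of all peripheral libraries. It did for 5 of the 6 members that passed the count filter in each tissue, where 21.1% of all 19295 genes tested varied. The adjusted p was 0.00275 for Chdh, 0.00409 for Osbpl5, 0.00568 for Slc45a3, 0.00648 for Smoc1 and 0.0303 for Acy3, and 0.283 for Cd82. Chdh was called in none of the 6 tissues by edgeR. It was close to 0 in wild-type heart (median 0.0391 FPKM), where 1 Q175 library stood apart at 2.846 CPM. For Slc45a3 the called values point both ways, higher in Q175 gonadal adipose and lower in Q175 brown adipose and skin. The joint fit included the Q175 males with epididymis markers in gonadal adipose and wild-type males 1 and 2 in skin, and was not repeated without them. Cldn14 passed the count filter in none of the 6 tissues. It entered the joint fit (adjusted p = 0.00082) with at most 35 counts in any peripheral library other than those of wild-type males 1 and 2 in skin, which had 182 and 163, and is not counted here. The call of Cd82 in skin and the absence of one elsewhere is therefore not shown to be a difference between tissues.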

How the data were processed

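RNA was measured by sequencing of polyadenylated RNA in 173 libraries from 11 tissues of 16 mice. The authors deposited estimated counts per gene, which need not be whole, and FPKM values, scaled to gene length and library total by the authors. The tool listed was CASAVA 1.8.2, per the submitters' processing notes. Aligner, quantifier, genome build and strand setting were not given in the sources used here. Counts that come from a model can split reads between overlapping genes, and FPKM moves with the whole composition of a library.

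Estimated counts were rounded and tested within each tissue with edgeR 4.0.16 in R 4.3.3 (quasi-likelihood test, TMM scaling, filterByExpr by genotype, sex as a term). P-values were adjusted by the Benjamini-Hochberg method over all genes tested, with a threshold of 0.05, and standard errors come from that model. CPM values are on the TMM scale of each tissue. The difference between peripheral tissues was tested with limma 3.58.1 (voom, correlation within an animal of 0.0397). Alternatives were DESeq2 1.42.0, other size factors, no count filter, no sex term, a replicate block, log2 of FPKM plus 1, and leaving out libraries. A term for the form of the library name was added in tissues whose libraries had both forms. Gonadal adipose in females alone and skin without wild-type males 1 and 2 were chosen after seeing the data. Scripts were tested on simulated counts. Library totals of 28 to 48 M estimated counts limit precision for genes with few counts, Cldn14 above all.

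The members, families and marker lists were chosen with earlier results of these data known. All members, Htt and Abhd1 are named, with the 3 genes most like each member (mean of at least 1 CPM in every brain region, or a member, and log2 of CPM plus 0.5) and up to 4 called genes per family and region by smallest p. Cacna1d was named after its overlap with Chdh was seen. Where nothing in the labels says that libraries of a group came from separate litters or days, p-values measure the spread between these animals. Figures were drawn with matplotlib 3.10.9 in Python 3.11.15.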

Additional observations from a re-analysis of the deposited data

Results flagged for a closer look

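Of 149 groups of 6 to 8 libraries, 14 had a library far from the others of its group by Dixon's criterion, where chance gives about 1 in 20. In corpus callosum Smoc1 reached 58.51 CPM in Q175 female 3, the next library having 37 CPM. In heart Chdh reached 2.846 CPM in Q175 male 2, the next having 1.149 CPM. In gonadal adipose Cd82 reached 85.14 CPM in Q175 male 1, the next having 56.92 CPM. In hypothalamus/thalamus Acy3 reached 2.172 CPM in wild-type male 4, the next having 1.7 CPM.

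In intestinal adipose the libraries far from their group were those of Q175 male 2, with Acy3 high at 17.9 CPM and Cd82 low at 51.08 CPM, of wild-type female 3, with Smoc1 at 383.3 CPM and Osbpl5 at 57.86 CPM, and of wild-type male 2, with Cldn14 at 0.0309 CPM where the other wild-type libraries had 0. In gastrocnemius Cd82 reached 15.72 CPM in Q175 male 2 and 17.71 CPM in wild-type male 3. Wild-type female 4 had the highest gastrocnemius values of its group for Chdh (1.911 CPM) and Cldn14 (0.04746 CPM), and wild-type female 3 the lowest for Osbpl5 (12.26 CPM).

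The Q175 difference varied between the 6 peripheral tissues by limma for Chdh (adjusted p = 0.00275), Osbpl5 (0.00409), Slc45a3 (0.00568), Smoc1 (0.00648) and Acy3 (0.0303). Chdh was called in none of these tissues by edgeR. Cldn14 had an adjusted p of 0.00082 in that fit, but passed the count filter in none of these tissues, and nothing is read from it.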

How the results depend on the processing

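Outside brain, 7 member differences were called by edgeR. DESeq2 called 11, the model without a sex term 4 and the replicate block 4, while leaving out 1 library at a time gave 5 to 10. Same-numbered deviations correlated at -0.553 to 0.781 over 85 pairs, 34 of them above 0.1. These mixed values cannot tell whether replicate numbers pair the samples. Without a sex term the calls of Slc45a3 (adjusted p = 0.189, edgeR) and Osbpl5 (0.0974) in gonadal adipose and Cd82 in skin (0.0948) were lost, and under the block those of Smoc1 (0.0777), Slc45a3 (0.0962) and Cd82 (0.121) in skin. Leaving out 1 library, Cd82 in skin was called in 4 of 14 fits, Slc45a3 in 12 of 16 in brown adipose, 13 of 15 in gonadal adipose and 12 of 14 in skin, and Osbpl5 in gonadal adipose in 14 of 15, while Smoc1 in skin and Acy3 in gonadal adipose were called in all. DESeq2 called 1 sex difference where edgeR called 0.

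Changes of sign came from uncalled differences. On log2 FPKM plus 1, Smoc1 in brown adipose gave -0.0014, Acy3 in brown adipose -0.0088, Cd82 in brown adipose -0.054, Osbpl5 in intestinal adipose 0.071 and Cd82 in intestinal adipose 0.064. In females alone, chosen after seeing the data, Smoc1 in gonadal adipose gave 0.24. Without a sex term Slc45a3 in intestinal adipose gave -0.011 and Chdh in gastrocnemius -0.045. Leaving out 1 library gave -0.0088 to 0.14 for Smoc1 and -0.026 to 0.043 for Cd82 in brown adipose, -0.062 to 0.11 for Slc45a3, -0.11 to 0.068 for Osbpl5 and -0.15 to 0.055 for Cd82 in intestinal adipose, and -0.17 to 0.0016 for Slc45a3, -0.11 to 0.19 for Cd82 and -0.12 to 0.60 for Chdh in gastrocnemius. The cause was not tested. In brain, 826 values were recomputed, and 0 of those for differences called in the main fit changed sign. Changes of sign in uncalled brain differences were not counted. By more than the replicate spread 9 values moved, all on log2 FPKM plus 1. Library names had 2 forms, called indexed and plain here, and what the forms stand for is not known. In hippocampus 2 Q175 and 0 wild-type libraries had an indexed name, and in cerebellum 4 of each genotype. As a term in the brain fits, name form moved no value by more than the replicate spread. Library name form had 1 level in brown and intestinal adipose, gastrocnemius, heart and skin and was not run there.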
